A study of Homo sapiens with 10 samples.

Results

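Transcripts of 10 genes for serine, one-carbon and asparagine synthesis were measured in DLD-1 cells, an epithelial line from a human colorectal cancer, after knockdown of LMNB1. This gene encodes lamin B1, which forms filaments beneath the inner nuclear membrane. The 10 genes were PHGDH, PSAT1, PSPH, SHMT1, SHMT2, MTHFD1, MTHFD2, MTHFD1L, ALDH1L2 and ASNS. Each was represented by the array probe annotated to that gene alone, and where a gene had several such probes the one with the highest mean was used. Of the 10, 7 had such a probe, out of 14232 genes on the array that did: PHGDH, PSAT1, SHMT1, SHMT2, MTHFD1, MTHFD2 and ASNS. PSPH was covered only by a probe that the annotation shares with NUPR2, and this probe is described beside the 7 genes without being counted among them. MTHFD2 also had a probe shared with SLC4A5, which was not used. MTHFD1L and ALDH1L2 were not analysed here, since no probe was named for them. All 7 genes passed the filter on low probes, a mean log2 level of 5.95, and lay above that level on every array.

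These enzymes feed biosynthesis from glycolysis and amino acids. PHGDH oxidises the glycolytic intermediate 3-phosphoglycerate, PSAT1 transaminates the product and PSPH releases serine. SHMT2 in mitochondria and SHMT1 in the cytosol then convert serine to glycine and pass a methylene group to tetrahydrofolate. MTHFD2 and ALDH1L2 oxidise this folate-bound carbon in mitochondria and MTHFD1L releases it there as formate, while MTHFD1 handles it in the cytosol for the synthesis of purines and thymidylate. ASNS makes asparagine from aspartate and glutamine. Several of these genes, ASNS, PHGDH, PSAT1, SHMT2 and MTHFD2 among them, are known targets of ATF4, the transcription factor of the amino acid response, and many cancer cell lines express them strongly.

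Knockdown was by a short hairpin RNA, expressed from either of 2 constructs. From V2LHS_62673 came clones 8, 9 and 12, each grown from a single cell and measured on 1 array. From V2LHS_62675 came 1 clone, measured on 3 arrays. Its arrays are titled clone 12 and biological replicates, but their descriptions and the design text give replicates of clone 2, and they were counted as 1 clone. The negative controls were 3 clones transfected with an empty vector, with 1 array each, and wild type cells without transfection, with 1 array. All cells grew in RPMI with serum, and all but the wild type cells were kept in puromycin, so that selection and cloning separate the empty vector from the wild type cells as well as the vector. A clone is 1 cell's descendants, so a difference that belongs to a clone and one that belongs to its construct cannot be told apart for V2LHS_62675. In RNA from whole cultures, fewer cells in a given state and less RNA per cell cannot be told apart either.

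Each array gave 1 log2 level per probe for 22011 probes, and a difference of 1 in log2 is a doubling. Clone 8 differed from the rest, since its array correlated at 0.915 to 0.926 with the other 9, and these at 0.986 or more among themselves. Its median log2 level was 7.62, against 7.34 to 7.41 on the others. Each comparison is therefore given with and without clone 8. The colon epithelial markers, 12 of 12 with a probe and 11 of them above the filter, averaged a log2 level of 8.87 to 9.20 on the arrays. The marker lists of leukocytes, fibroblasts and endothelium averaged 6.31, 6.27 and 6.57 in clone 8 and stayed at or below 6.04 on every other array. The low end of clone 8's array was raised as a whole, with a 25th percentile of all probes at 6.32, against 5.82 to 5.96 on the others. The leukocyte and fibroblast averages of clone 8 lay below that percentile and the endothelial one above it. What raised these lists, and their part in the results with clone 8, was not tested. LMNB1 itself was read on a probe that the annotation shares with PCIF1. This probe read 7.79, 7.70 and 7.45 in clones 8, 9 and 12 and 7.72, 7.72 and 7.56 on the V2LHS_62675 arrays, against 8.93, 9.17 and 8.84 in the empty vector clones and 9.52 in wild type cells. The difference between the 4 knockdown clones and the 4 controls was -1.46 (exact permutation test, two-sided, p = 0.0286, the smallest that 70 regroupings can give), and every knockdown array lay below every control array.

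The promoters of ASNS, PHGDH and MTHFD2 are shown as 1 gene each of asparagine synthesis, serine synthesis and the mitochondrial folate branch. They are shown because the amino acid response acts through a known promoter element with the core TGATGNAA. Each line gives the 250 bases before the annotated start in RefSeq's GRCh38.p14 table, 5′ to 3′ on the gene's strand, with a match to the core in capitals. ASNS lies on the minus strand of chromosome 7 (chr7:97872409-97872658), PHGDH on the plus strand of chromosome 1 (chr1:119711684-119711933) and MTHFD2 on the plus strand of chromosome 2 (chr2:74198365-74198614).
ASNS: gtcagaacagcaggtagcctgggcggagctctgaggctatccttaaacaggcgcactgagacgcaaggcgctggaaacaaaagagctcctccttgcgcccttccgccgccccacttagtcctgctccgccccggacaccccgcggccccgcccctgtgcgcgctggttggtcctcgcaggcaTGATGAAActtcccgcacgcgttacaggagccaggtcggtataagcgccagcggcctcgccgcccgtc
PHGDH: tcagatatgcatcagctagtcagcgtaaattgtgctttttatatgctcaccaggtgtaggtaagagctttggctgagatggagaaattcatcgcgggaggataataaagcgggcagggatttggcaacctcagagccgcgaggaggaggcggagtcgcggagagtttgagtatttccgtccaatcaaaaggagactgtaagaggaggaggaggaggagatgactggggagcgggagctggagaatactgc
MTHFD2: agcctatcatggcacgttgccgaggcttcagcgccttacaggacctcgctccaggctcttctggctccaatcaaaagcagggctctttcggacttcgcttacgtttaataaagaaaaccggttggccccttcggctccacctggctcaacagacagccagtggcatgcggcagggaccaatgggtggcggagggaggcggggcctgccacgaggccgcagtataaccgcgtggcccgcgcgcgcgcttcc
The core was searched on both strands from 250 bases before to 50 bases after each start. It occurred in 3.62% of the 35116 promoter windows in the table. Of the 10 genes, 7 had a window there, 11 windows in all, and the core lay in windows of ASNS and MTHFD1L. In ASNS it read TGATGAAA, 68 to 61 bases before the start of 1 of the gene's 2 windows. The other genes with a window had no match to these letters in it. SHMT2, PSPH and ALDH1L2 were not matched in the table. The GC content of the 250 bases shown was 66% for ASNS, 51.2% for PHGDH and 62.4% for MTHFD2. The median over all windows, which also hold the 50 bases after the start, was 58.7%.

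PHGDH, the entry enzyme of serine synthesis, was highest in the empty vector clones. Its log2 level was 10.47 in clone 8, 11.21 in clone 9 and 10.36 in clone 12. The V2LHS_62675 arrays read 10.16, 10.72 and 10.62. In the empty vector clones it was 11.16, 11.58 and 11.48, and in the wild type cells 10.58. All knockdown arrays but that of clone 9 lay below all 3 empty vector clones, and clone 9 lay within their range. The wild type level lay among the knockdown levels, so the knockdown clones and the 4 controls overlapped.

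PSAT1, the aminotransferase of the same pathway, differed little outside clone 8. It read 8.95, 10.38 and 9.95 in clones 8, 9 and 12 and 10.10, 10.20 and 10.25 on the V2LHS_62675 arrays. In the empty vector clones it read 10.22, 10.38 and 10.23, and in wild type cells 9.88. Clone 8 was the lowest sample, and without it the knockdown clones lay within the range of the controls. The probe shared by PSPH, the phosphatase that completes serine synthesis, and NUPR2 read 9.83, 10.29 and 9.64 in clones 8, 9 and 12. It read 9.32, 9.94 and 9.98 on the V2LHS_62675 arrays, against 10.16, 10.23 and 10.13 in the empty vector clones and 9.65 in wild type cells. Clone 9 was the highest sample on this probe, and clone 12 lay at the wild type level.

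SHMT2, the mitochondrial serine hydroxymethyltransferase, read 10.20, 10.96 and 10.55 in clones 8, 9 and 12, and 10.83, 11.09 and 11.17 on the V2LHS_62675 arrays. The empty vector clones read 10.91, 11.38 and 11.33, and the wild type cells 11.11. Clones 8 and 12 lay below every control, while clone 9 and arrays 2 and 3 of V2LHS_62675 lay within the range of the controls. SHMT1, its cytosolic counterpart, read 8.45, 9.03 and 9.16 in clones 8, 9 and 12, and 8.79, 8.71 and 8.97 on the V2LHS_62675 arrays. Empty vector clones read 8.98, 9.01 and 8.93, within 0.074 of each other, and the wild type cells 8.74. Clones 9 and 12 lay above the empty vector clones and clone 8 below all other samples, so V2LHS_62673 clones stood at both ends of the order.

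MTHFD2, the mitochondrial methylenetetrahydrofolate dehydrogenase, read 12.00, 11.88 and 11.35 in clones 8, 9 and 12. The V2LHS_62675 arrays read 11.12, 11.73 and 11.74. The empty vector clones read 11.79, 11.99 and 11.97, and the wild type cells 11.46. The lowest levels were those of array 1 of V2LHS_62675, clone 12 and the wild type cells. MTHFD1, the cytosolic trifunctional enzyme, read 9.19, 9.42 and 9.35 in clones 8, 9 and 12, and 9.42, 9.44 and 9.79 on the V2LHS_62675 arrays. The empty vector clones read 9.24, 9.17 and 9.04, and the wild type cells 9.41. The empty vector clones and clone 8 were low, and all other knockdown arrays lay above the empty vector clones.

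ASNS, the asparagine synthetase, read 11.19, 10.67 and 9.92 in clones 8, 9 and 12 and 10.15, 10.62 and 10.53 on the V2LHS_62675 arrays. The empty vector clones read 10.64, 11.12 and 11.23, and the wild type cells 10.19. Clone 12 gave the lowest level of all samples and clone 8 the second highest, so clones of 1 construct differed by 1.27 log2, more than any 2 group means did. The V2LHS_62675 arrays lay below the empty vector clones, though their nearest values, 10.62 and 10.64, almost met.

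**Figure D1:**
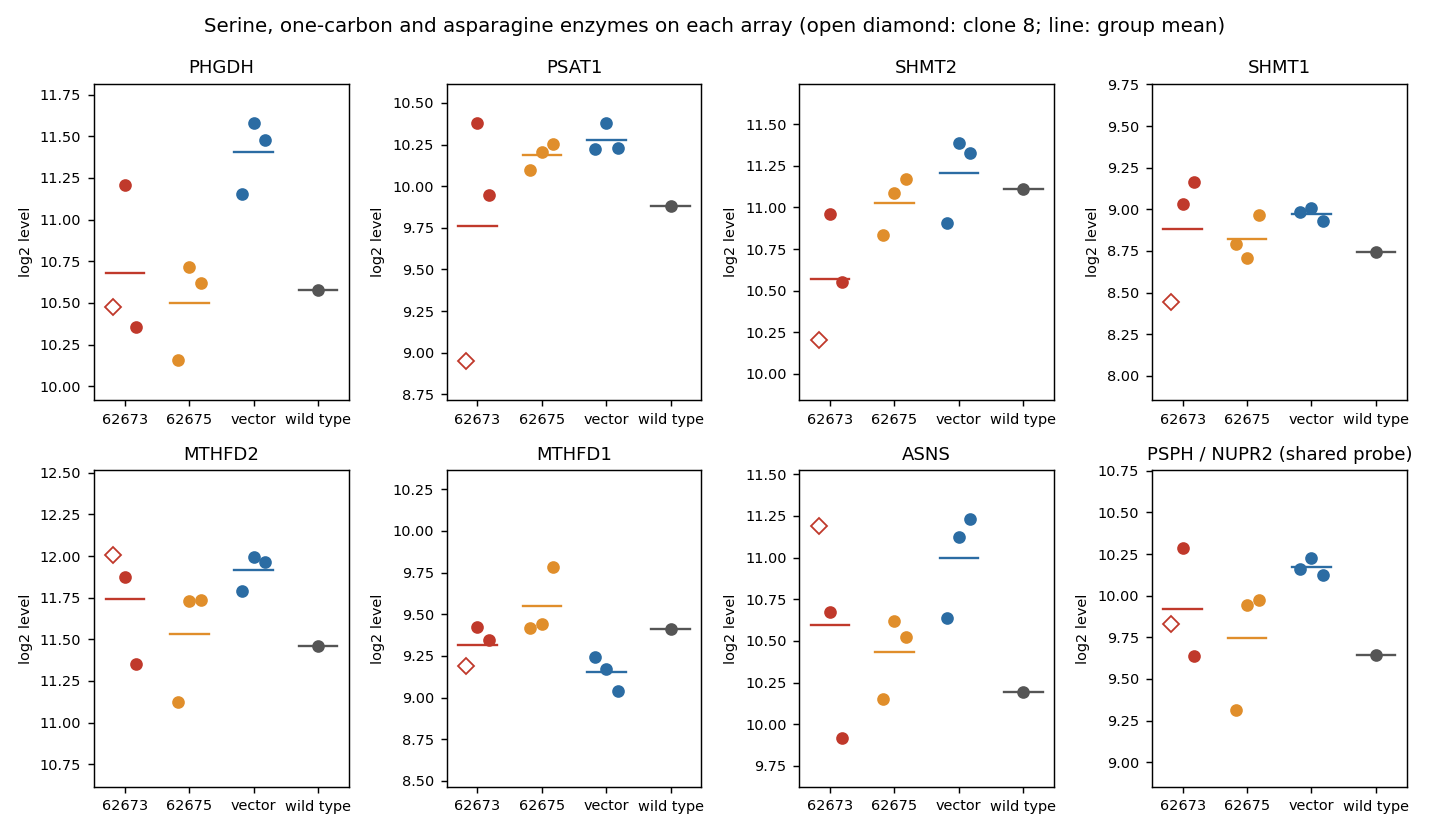
Log2 level (vertical axis) of the 7 genes and of the probe shared by PSPH and NUPR2 on each array, by group: construct V2LHS_62673 (clones 8, 9 and 12), V2LHS_62675 (3 arrays of 1 clone), empty vector (3 clones) and wild type (1 array). Points are arrays, the open diamond is clone 8 and lines are group means. PHGDH in the empty vector clones sat at 11.16 to 11.58, above every other array but that of clone 9 at 11.21.

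The comparison of knockdown with control asks whether lamin B1 loss as such went with a change in these enzymes. No gene of the 7 passed the test in limma, where Benjamini-Hochberg adjustment ran over 11200 features and the threshold was 0.05. No feature at all passed it (0% of features called), and 257 features, 2.29%, had an unadjusted p under 0.05. SHMT2 and PHGDH were 2 of those. The LMNB1 probe, at -1.46, did not pass either (limma adjusted p = 0.0602, and 0.0564 without clone 8). The test thus did not call even the target of the knockdown. In V2LHS_62673 against empty vector the LMNB1 probe had an adjusted p of 0.214 with all clones and 0.000914 without clone 8. SHMT2 averaged 10.69 ± 0.39 in the 4 knockdown clones and 11.18 ± 0.22 in the 4 controls (SD), a difference of -0.50 ± 0.20 (SE, limma adjusted p = 0.761). PHGDH averaged 10.63 ± 0.39 in knockdown clones and 11.20 ± 0.45 in controls, a difference of -0.56 ± 0.25 with the same adjusted p. The other differences were -0.31 for PSAT1, -0.24 for ASNS, -0.11 for MTHFD2, -0.051 for SHMT1 and 0.16 for MTHFD1, each with a 95% interval that held 0. Of the 7 genes, 6 were lower in knockdown and 1 higher, with a median of -0.24, where 43.9% of all features were lower and their median was 0.039.

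Without clone 8 no gene and no feature passed either (0% called), and the unadjusted test held for 725 features, 6.47%, and for none of the 7 genes. PHGDH then differed by -0.51 ± 0.27 (limma adjusted p = 0.793), SHMT2 by -0.34 ± 0.15 (adjusted p = 0.769) and ASNS by -0.46 ± 0.26 (adjusted p = 0.810). PSAT1 stood at -0.0077, with a 95% interval of -0.32 to 0.30. SHMT1 turned in sign, to 0.089. None of the 7 genes had all 4 knockdown clones on one side of all 4 controls. This happened in 1.54% of features for lower and 1.6% for higher knockdown levels.

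**Figure D2:**
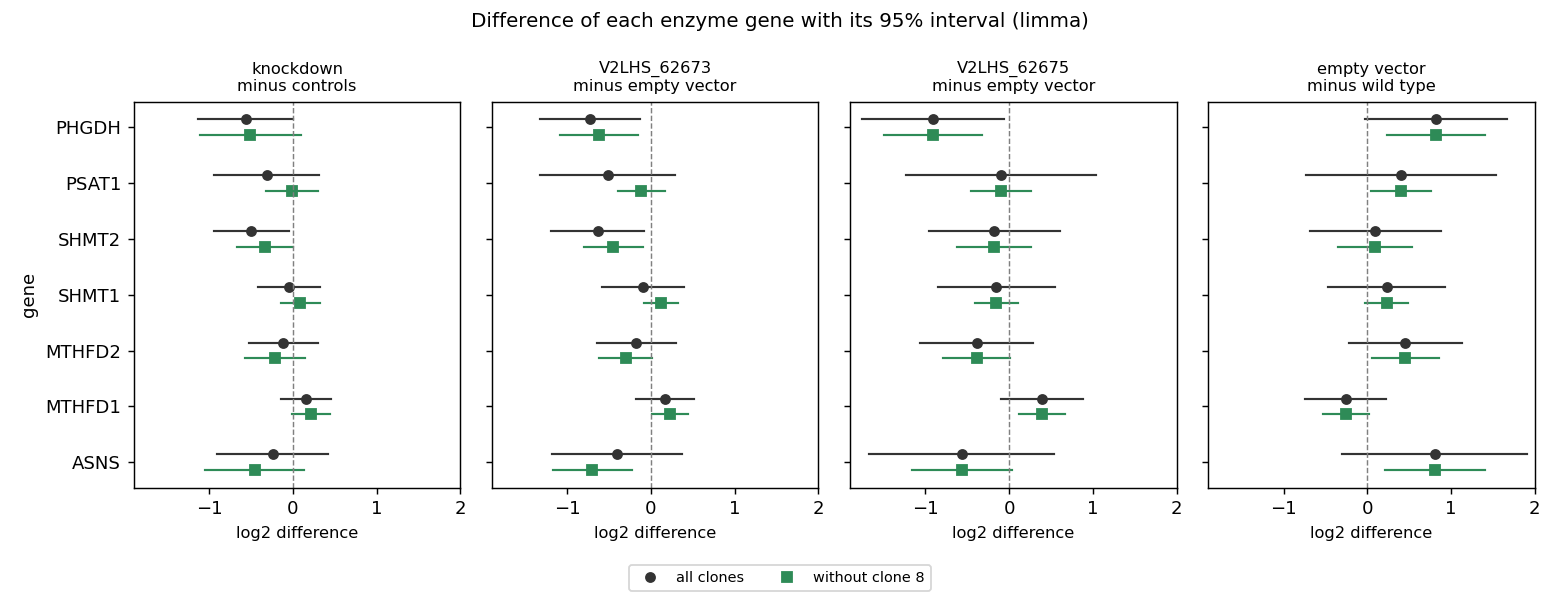
Log2 difference (horizontal axis) of each of the 7 genes in 4 comparisons, with 95% intervals from limma, for all clones (circles) and without clone 8 (squares). Intervals are unadjusted, and no difference passed the adjusted test. PHGDH lay at -0.91 in V2LHS_62675 minus empty vector and at 0.82 in empty vector minus wild type.

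The comparisons of each construct with the empty vector ask about clones that went through the same selection. They share the empty vector clones, so their values are given side by side and are not independent. In V2LHS_62673 against empty vector no gene passed the limma test (0% of features called), with 358 features, 3.2%, under an unadjusted p of 0.05, PHGDH and SHMT2 among them. PHGDH averaged 10.68 ± 0.46 in V2LHS_62673 clones and 11.40 ± 0.22 in empty vector clones (SD, n = 3 each), a difference of -0.73 ± 0.25 (SE, limma adjusted p = 0.741). SHMT2 averaged 10.57 ± 0.38 in V2LHS_62673 clones and 11.21 ± 0.26 in empty vector clones, a difference of -0.64 ± 0.24 with the same adjusted p. PSAT1 differed by -0.52 ± 0.34, and by -0.11 ± 0.13 without clone 8. None of the 7 genes had all V2LHS_62673 clones on one side of the empty vector clones, where 7.96% of features had them lower and 5.79% higher.

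Without clone 8, 115 of the 11200 features passed in this comparison (1.03%), none of the 7 genes among them. The smallest adjusted p was that of ASNS, at -0.70 ± 0.21 (limma adjusted p = 0.148), where it had been -0.40 ± 0.33 with clone 8 included. PHGDH stood at -0.62 ± 0.21 (adjusted p = 0.180) and SHMT2 at -0.45 ± 0.16 (adjusted p = 0.199). MTHFD1 stood at 0.23 ± 0.10 (adjusted p = 0.285). These 4 genes had an unadjusted p under 0.05, as 16% of all features did. The 7 genes had a median of -0.30 beside a median of -0.0005 over all features, with 5 lower and 2 higher, where 50.1% of features were lower.

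V2LHS_62675 against empty vector rests on 1 clone, whose variation between clones is assumed to be that of the other groups. PHGDH averaged 10.50 over the clone's arrays, against 11.40 ± 0.22 in the empty vector clones (SD, n = 3), a difference of -0.91 that corresponds to a level 1.87-fold lower. It did not pass with all clones, where no feature did (0% called, 295 features or 2.63% under an unadjusted p of 0.05). Without clone 8 the estimate was the same and its error smaller, at ± 0.26 (limma adjusted p = 0.0895), and again none of the 7 genes passed, while 419 features did (3.74%). MTHFD1 came next at 0.39 ± 0.12 (adjusted p = 0.110), followed by MTHFD2 at -0.39 ± 0.18 (adjusted p = 0.296) and ASNS at -0.57 ± 0.27 (adjusted p = 0.308). The probe shared by PSPH and NUPR2 stood at -0.43 ± 0.20 (adjusted p = 0.292). PHGDH and MTHFD1 had an unadjusted p under 0.05 without clone 8, as did 18.2% of features. SHMT2 differed by -0.18, SHMT1 by -0.15 and PSAT1 by -0.093.

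On the single arrays, PHGDH, MTHFD2 and ASNS read lower on all 3 V2LHS_62675 arrays than in all 3 empty vector clones, 3 of the 7 genes, and 13.6% of all features did so. MTHFD1 read higher on all 3, as 13.4% of features did. Against the empty vector clones MTHFD1 was also higher in clones 9 and 12, so that all knockdown clones but clone 8 lay above them, as was found for 8.57% of features. The spread between arrays of the V2LHS_62675 clone was not small. MTHFD2 varied by 0.61 between these arrays and by 0.20 between the empty vector clones. PHGDH varied by 0.56 between the arrays and by 0.42 between the empty vector clones. Array 1 was the lowest of the 3 for PHGDH, PSAT1, SHMT2, MTHFD2, MTHFD1 and ASNS, and array 2 was the lowest for SHMT1. Among the empty vector clones, replicate 1 was likewise the lowest for PHGDH, PSAT1, SHMT2, MTHFD2 and ASNS, but the highest for MTHFD1. For PSAT1 replicates 1 and 3 almost tied, at 10.224 and 10.227. Levels of PHGDH, MTHFD2 and ASNS followed each other across clones, so these genes are not separate observations. Why array 1 and replicate 1 were low was not tested.

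Set against each other, the constructs differed in none of the 7 genes past the threshold. With all clones, no feature passed in limma (0% called, 250 features or 2.23% under an unadjusted p of 0.05). Without clone 8, 241 features passed (2.15%), with none of the 7 genes among them. None of these had an unadjusted p under 0.05, as 15.2% of features did. The smallest p without clone 8 was that of SHMT1, 8.82 over the V2LHS_62675 arrays and 9.10 ± 0.094 in clones 9 and 12 (SD), a difference of -0.27 with a 95% interval of -0.55 to 0.0026 (limma adjusted p = 0.335). PHGDH differed by -0.28 between the constructs with an interval of -0.91 to 0.34, and ASNS by 0.14 with an interval of -0.50 to 0.77, so the arrays leave room for a sizeable difference in either gene. Clones 9 and 12 of the same construct differed by 0.85 in PHGDH, 0.75 in ASNS, 0.53 in MTHFD2, 0.43 in PSAT1 and 0.41 in SHMT2, with clone 9 higher each time. These gaps between clones of 1 construct exceeded the differences between the constructs without clone 8, which were -0.28, 0.14, -0.083, 0.022 and 0.27 for these genes.

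The empty vector clones were set against the wild type cells as a measure of what differs between controls, with the single wild type array assumed to vary like the other groups. No feature passed with all clones (0% called, 290 features or 2.59% under an unadjusted p of 0.05), and none of the 7 genes had an unadjusted p under 0.05. PHGDH was 11.40 ± 0.22 in empty vector clones (SD, n = 3) and 10.58 in wild type cells, a difference of 0.82 that is close in size to its differences between knockdown and empty vector clones. ASNS, at 10.64 to 11.23 in empty vector clones and 10.19 in wild type cells, differed by 0.81. MTHFD2 differed by 0.46, PSAT1 by 0.40, SHMT1 by 0.23 and SHMT2 by 0.097, and MTHFD1 by -0.26. Without clone 8, 402 features passed (3.59%) and none of the 7 genes did, the smallest adjusted p being 0.111 for PHGDH and 0.126 for ASNS in limma. PHGDH, ASNS, MTHFD2 and PSAT1 had an unadjusted p under 0.05 there, as did 19.7% of features.

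In 5 of the 7 genes, PHGDH, PSAT1, SHMT1, MTHFD2 and ASNS, all empty vector clones lay above the wild type array, as they did in 30.3% of features. MTHFD1 lay below it in all of them, as 30.1% of features did. The median of the 7 genes was 0.40, where the median over all features was 0.0066. Both constructs were set against the same empty vector clones, so these differences and those of the constructs are not independent. Puromycin, cloning and the vector all differ between these controls and cannot be told apart.

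The levels of PHGDH, MTHFD2 and ASNS followed each other across clones. Over the 7 clone-level samples other than clone 8, in which the V2LHS_62675 clone counts once, PHGDH correlated with MTHFD2 at r = 0.99 (Spearman rho = 0.96) and with ASNS at r = 0.94 (rho = 0.93). Among 11199 other features, MTHFD2 ranked 3 and ASNS 61 in likeness to PHGDH. MTHFD2 and ASNS correlated at r = 0.96. Leaving out the 2 samples farthest from the median PHGDH level gave r = 0.99 with MTHFD2 and 0.96 with ASNS. PHGDH correlated at 0.79 with PSAT1, 0.71 with SHMT2, 0.15 with SHMT1 and -0.75 with MTHFD1, and at 0.92 with the probe shared by PSPH and NUPR2. With clone 8 included, r for PHGDH was 0.70 with MTHFD2 and 0.64 with ASNS, and clone 8 combined a low PHGDH level with high MTHFD2 and ASNS levels. These are descriptions of 7 points from 1 cell line, of which 3 are empty vector clones at the high end, and the groups are too small for a value within each.

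**Figure D3:**
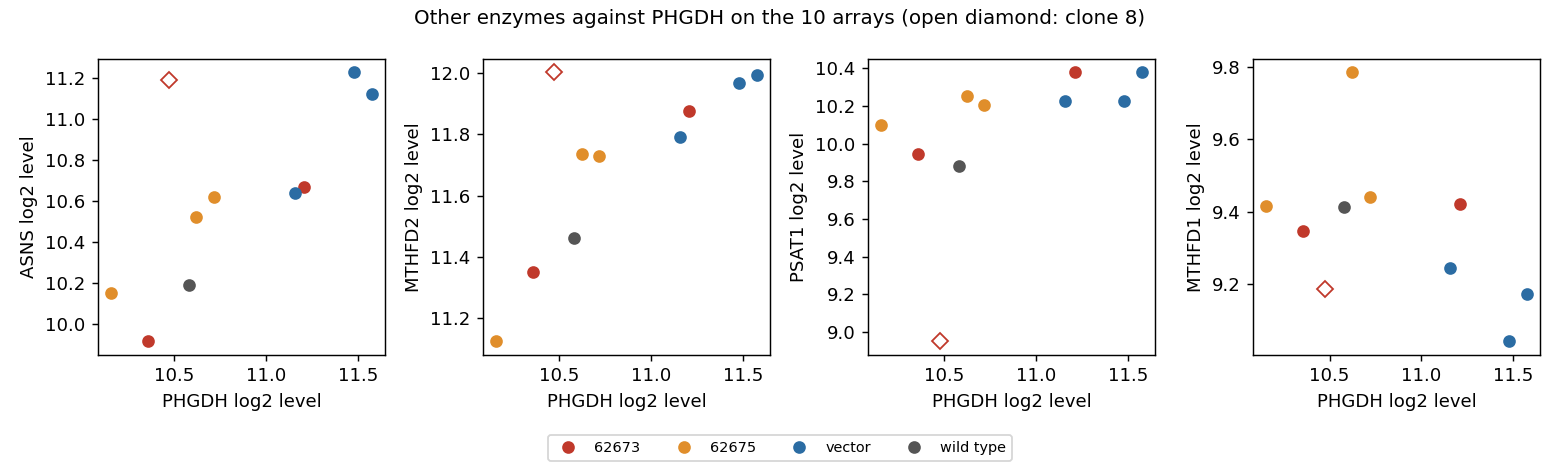
Log2 levels of ASNS, MTHFD2, PSAT1 and MTHFD1 (vertical axes) against the log2 level of PHGDH (horizontal axis) on the 10 arrays, coloured by group; the open diamond is clone 8. Clone 8 lies away from the other arrays in the plots of ASNS, MTHFD2 and PSAT1. In the empty vector clones PHGDH is at 11.16 to 11.58 and MTHFD1 at 9.04 to 9.24.

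The genes most like PHGDH over the same 7 samples were LGI2 (r = 0.99), TFR2 (r = 0.99) and MTHFD2. Those most like MTHFD2 were PIP4P2 (r = 0.99), PHGDH and LRATD2 (r = 0.98). Those most like ASNS were THEMIS2 (r = 0.99), VEGFA (r = 0.99) and DDIT3 (r = 0.99), the last of which encodes CHOP, a transcription factor of the integrated stress response. With clone 8 included these coefficients were 0.52 to 0.88.

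Other genes around these enzymes were read from lists of the pathway neighbours, 8 lists in all. Most genes named from them were picked for a small p or a call without clone 8, so their calls partly reflect that choice. None of their genes passed in any comparison with all clones (0% of features called), though 9 of those named here did when arrays were weighted by quality. In the list of the ATF4 axis, its kinases, partners and targets, 15 of 21 genes were lower in V2LHS_62673 than in empty vector clones, 15 of 21 were lower in V2LHS_62675 than in empty vector clones, and 15 of 21 were higher in empty vector clones than in wild type cells. The median differences were -0.11, -0.15 and 0.12, where all features had 0.043, 0.023 and 0.0066. Without clone 8, 1 gene of 21 passed in V2LHS_62675 against empty vector, where 3.74% of all features did, and 2 of 21 passed in empty vector against wild type, where 3.59% did. TRIB3, a pseudokinase induced by ATF4, read 9.10 over the V2LHS_62675 arrays and 9.64 to 9.79 in empty vector clones, and fell by 0.62 (limma adjusted p = 0.0405). Wild type cells read 9.21, near the knockdown clone. DDIT4, a stress-induced inhibitor of mTORC1, read 8.98, 9.78 and 10.08 in empty vector clones and 7.17 in wild type cells, and was 2.45 higher (adjusted p = 0.0221). CHAC1, which degrades glutathione, read 8.52 to 8.98 in empty vector clones and 7.45 in wild type cells, and was 1.31 higher (adjusted p = 0.0384).

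DDIT4 did not pass in V2LHS_62673 against empty vector without clone 8, at -1.51 ± 0.34 (limma adjusted p = 0.0714). It read 9.86 in clone 8, 8.72 in clone 9 and 7.49 in clone 12, a range of levels wider than that of any of the 7 enzyme genes. DDIT3 read 7.62, 8.33 and 7.67 in clones 8, 9 and 12 and 8.02 in the V2LHS_62675 clone, against 8.17, 8.76 and 8.72 in empty vector clones and 7.85 in wild type cells. Its difference between knockdown clones and controls was -0.47 ± 0.24 (limma adjusted p = 0.761).

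Of the transporters of serine, asparagine and other neutral amino acids, 8 of 12 were lower in V2LHS_62673 than in empty vector clones, and 11 of 12 without clone 8, with a median of -0.29 there. In V2LHS_62675 against empty vector the median was 0.012, with 5 of 12 lower. SFXN3, a mitochondrial serine carrier, differed by -0.42 ± 0.094 in V2LHS_62673 without clone 8 (limma adjusted p = 0.0669), and SLC1A5, the glutamine transporter also known as ASCT2, by -0.46 ± 0.15 (adjusted p = 0.161). SLC38A2, an amino acid transporter that responds to starvation, read 11.63 to 11.68 in empty vector clones and 10.94 in wild type cells. It was 0.72 higher in empty vector clones with or without clone 8, which is in neither group. The difference passed without clone 8 but not with all clones. It rests on 1 wild type array, and the share of all features that passed is given above with the ATF4 axis.

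In the folate list 8 of 12 genes were lower in V2LHS_62673 than in empty vector clones, with a median of -0.063, and 5 of 12 were lower in V2LHS_62675, with a median of 0.088. FPGS, which adds glutamates to folate, differed by -0.49 ± 0.11 in V2LHS_62673 against empty vector without clone 8 (limma adjusted p = 0.0757), and FOLR1, a folate receptor, by -0.44 ± 0.13 (adjusted p = 0.149). TYMS, the thymidylate synthase, differed by 0.20 between knockdown clones and controls. In purine synthesis 8 of 10 genes were lower in V2LHS_62673 and 4 of 10 in V2LHS_62675, with medians of -0.073 and 0.04. IMPDH2, which commits to guanine nucleotides, differed by -0.30 ± 0.11 in V2LHS_62673 without clone 8 and did not pass.

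Of the 9 tested genes for methionine, methylation and transsulfuration, 7 were lower in V2LHS_62673 and 5 in V2LHS_62675 than in empty vector clones. PEMT, which methylates phosphatidylethanolamine, read 10.01 over the V2LHS_62675 arrays, against 10.71, 11.10 and 11.02 in empty vector clones and 10.25 in wild type cells, and fell by 0.94 without clone 8 in the fit (limma adjusted p = 0.0285), though with it PEMT did not pass. CTH, the last enzyme of transsulfuration, read 6.52 in clone 8, 7.57 in clone 9, 8.07 in clone 12 and 7.42 in the V2LHS_62675 clone, against 7.88, 8.16 and 7.96 in empty vector clones and 7.69 in wild type cells. Among 3 tested genes of glycine cleavage and serine breakdown, SRR, the serine racemase, was 0.96 higher in empty vector clones than in wild type cells. It read 8.10 to 8.29 in empty vector clones and 7.26 on the 1 wild type array. SRR passed without clone 8 but not with all clones. The shares of all features that passed in the comparisons of PEMT and SRR are given above with the ATF4 axis. GCAT, which forms glycine in threonine breakdown, differed by -0.29 ± 0.10 in V2LHS_62673 without clone 8 (adjusted p = 0.202).

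For aspartate, glutamate and proline enzymes 5 of 8 were lower in V2LHS_62673 than in empty vector clones and 1 of 8 in V2LHS_62675, with medians of -0.074 and 0.13. GOT2, the mitochondrial aspartate aminotransferase, read 10.79 in clone 8 and 9.88 and 9.78 in clones 9 and 12, against 9.93, 10.33 and 10.40 in empty vector clones and 10.75 in wild type cells. Of 8 tested glycolytic genes upstream of serine synthesis, 6 were lower in V2LHS_62673 and 4 in V2LHS_62675, with medians of -0.21 and -0.072. PGK1, whose product 3-phosphoglycerate is the substrate of PHGDH, read 12.54, 11.52 and 11.66 in clones 8, 9 and 12 and 11.07 in the V2LHS_62675 clone, against 11.37, 11.16 and 11.15 in empty vector clones and 10.81 in wild type cells. It was thus higher in each V2LHS_62673 clone than in any control, and the difference without clone 8 was 0.36 ± 0.10 (limma adjusted p = 0.132). PGK1 was named for its small p, and 5.79% of features had all V2LHS_62673 clones above the empty vector clones. The share above all 4 controls is not given here.

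**Figure D4:**
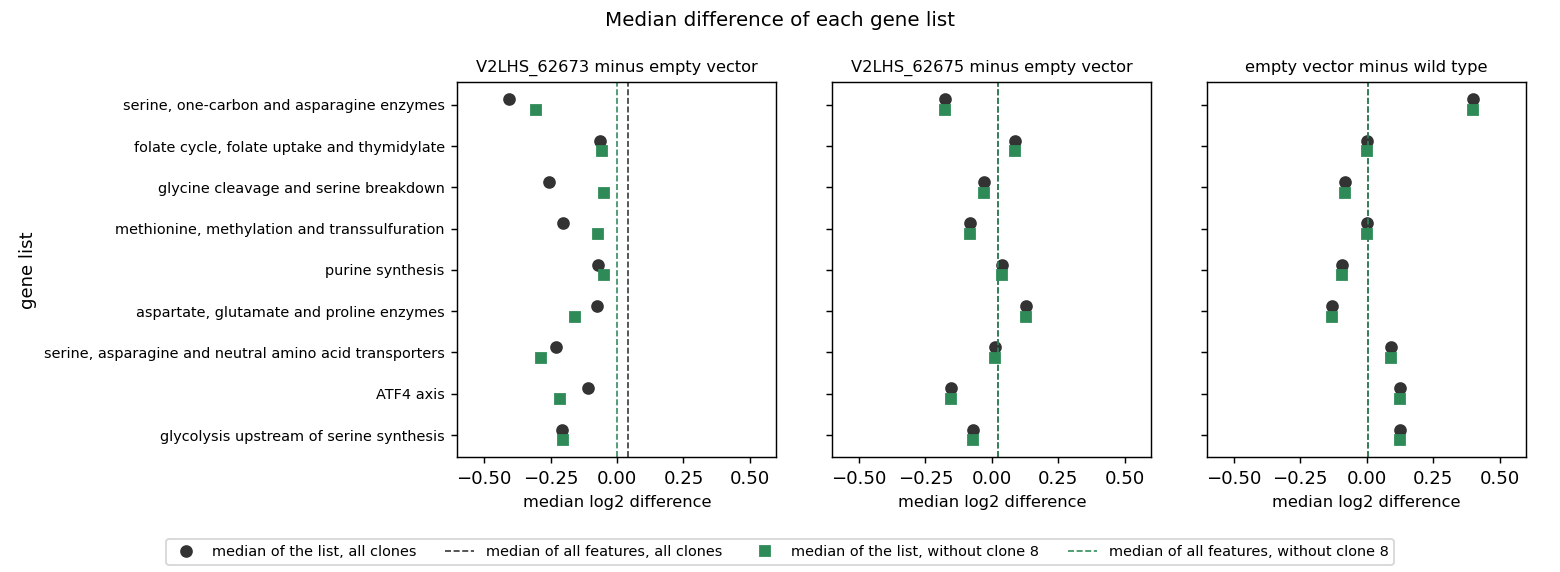
Median log2 difference (horizontal axis) of the 7 enzyme genes and of the 8 neighbouring lists in 3 comparisons, for all clones (circles) and without clone 8 (squares); dashed lines are the medians over all 11200 features. The 7 genes lay lowest in both comparisons of a construct with the empty vector, at -0.40 and -0.18, and highest in empty vector minus wild type, at 0.40. In V2LHS_62675 the ATF4 axis lay close to them, at -0.15. The 3 comparisons share the empty vector clones, and all lists were chosen with earlier results of these data known. No test was made of a list.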

How the data were processed

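Per the labels' protocols, Trizol RNA was depleted of ribosomal RNA and hybridised as biotin-labelled cDNA. The deposited values are 1 log2 level per probe and array, the scale being read from their range; how the authors corrected, normalized and summarised them is not given in the sources used here. Of 22011 probes, 14432 carry 1 gene symbol in the platform annotation, 2408 several and 5171 none. Values were used without further scaling. Probes with a mean below the 25th percentile were left out, which left 11198 genes and 2 shared probes, LMNB1/PCIF1 and PSPH/NUPR2.

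The 3 V2LHS_62675 arrays were averaged, giving 8 clone-level samples. limma 3.58.1 in R 4.3.3 (lmFit, eBayes) fitted 2 classes, and the 4 groups for the other comparisons, two-sided, with Benjamini-Hochberg adjustment over 11200 features and a threshold of 0.05. The number of arrays limits the precision. p-values set a difference against the spread of samples within the fitted classes or groups. In the fit of 2 classes this spread includes differences between the constructs and between empty vector and wild type. In the fit of 4 groups the V2LHS_62675 clone and the wild type, with 1 sample each, add no spread. The code was tested on simulated data. Python 3.11.15 with scipy 1.17.1 gave the permutation test.

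The 10 genes and the other lists were chosen with earlier results of these data known. From each list, up to 2 genes with the smallest p in V2LHS_62673 against empty vector without clone 8 and 1 in knockdown against controls were eligible for naming; genes that passed were named beside them. Alternatives were quantile normalization, median centring, other filters and priors, array weights, every array as a replicate, blocks, and leaving out each clone or array. Proteins were not used here.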

Additional observations from a re-analysis of the deposited data

Results flagged for a closer look

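PHGDH in clone 9 of V2LHS_62673 read 11.21, while the other knockdown clones read 10.36 to 10.50, and the gap was 0.833 of the range of the 4 clones, just above Dixon's critical value at 95%. It was the only 1 of 18 sets of 4 clones, knockdown or control, in which a sample lay that far out, and chance alone marks about 1 in 20. LMNB1 in that clone, at 7.70 on its shared probe, lay among the other knockdown clones.

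PEMT differed between the constructs by -1.04 without clone 8, at 10.01 over the V2LHS_62675 arrays and 11.28 and 10.81 in clones 9 and 12 (limma adjusted p = 0.0360). With clone 8, which read 10.14, the difference was -0.73 and did not pass (adjusted p = 0.932).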

How the results depend on the processing

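Of 777 values of the 7 genes under the alternatives, 753 kept their direction and their side of the limma threshold, 21 changed sign and 3 became calls. The calls were all in V2LHS_62675 against empty vector with the 6 arrays taken as replicates, though 3 are repeats of 1 clone. A replicate block on the array number called PHGDH (adjusted p = 0.000481) and ASNS (adjusted p = 0.0100), so 2 of the 7 genes among 948 features (8.46%), and the same arrays without a block, an alternative chosen after seeing the data, called 1, PHGDH (adjusted p = 0.00779), among 1020 (9.11%). Over all features, same-numbered samples correlated at 0.029, -0.15 and -0.24 in their deviations, so no pairing by number showed there. For PHGDH, PSAT1, SHMT2, MTHFD2 and ASNS, however, number 1 was the lowest of the 3 in both groups. For PSAT1 the empty vector clones 1 and 3 almost tied, at 10.224 and 10.227, and several of these genes followed each other. Whether the numbers pair the samples for these genes was not tested.

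The count of features past the threshold was 0 in all 5 comparisons. In knockdown against controls it was 1 with quantile normalization, 1 with a trended prior, 7 with array weights, 2 with every array as a replicate, 1 with clone as a random block, 3 against empty vector clones only, 19 against these without clone 8, and 0 to 3 leaving out 1 clone or array. In V2LHS_62673 against empty vector it was 341 with weights, 6 with every array, 5 with the random block and 0 to 115 leaving out 1. In V2LHS_62675 against empty vector it was 470, 58 and 1 under these settings and 0 to 419 leaving out 1. In empty vector against wild type it was 1 without a filter, 476 with weights and 0 to 402 leaving out 1. Between constructs it was 367, 15 and 4, and 0 to 241. In the last 4 comparisons the highest count leaving out 1 was that without clone 8, and array weights gave more. Weights keep clone 8 but can lower its part. In V2LHS_62673 against empty vector, SHMT1 differed by 0.085 with weights, 0.12 without clone 8 and -0.094 with all clones. ASNS differed by -0.51, -0.70 and -0.40. The weighted values of the 7 genes were nearer to those without clone 8, except for MTHFD2 and ASNS. How far the weights set clone 8 aside, and the cause of the higher counts, was not tested. Scalings without clone 8 were added after seeing the data. Quantile normalization then gave 27, 284, 202 and 157 in the last 4 comparisons and median centring 51, 276, 278 and 127. The share of higher calls was 41.5% in V2LHS_62675 against empty vector and 29.2% after quantile normalization, 43.6% and 31.2% between constructs, and in empty vector against wild type 52.7% and 42.4% after centring.

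The LMNB1 difference was -1.55 to -1.33 leaving out 1 sample (-1.47 without the V2LHS_62675 clone), where 3 against 4 cannot pass. Signs turned for SHMT1 in knockdown against controls (0.081 with weights, 0.082 and 0.081 with either scaling without clone 8, 0.031 against empty vector clones without it, -0.15 to 0.089 leaving out 1), in V2LHS_62673 (0.085, 0.12 and 0.12, -0.24 to 0.12) and between constructs (0.031 with centring, -0.27 to 0.084). Between constructs they also turned for PSAT1 (-0.048 with weights, -0.029 with quantile normalization without clone 8), ASNS (0.086 and 0.15 with the scalings, -0.50 to 0.14), PHGDH (-0.34 to 0.083) and the PSPH/NUPR2 probe (-0.31 to 0.040). MTHFD2 spanned -0.23 to 0.00071 in knockdown against controls and -0.30 to 0.023 in V2LHS_62673. Array weights also called 9 of the list genes named here: FOLR1, FPGS and SFXN3 in V2LHS_62673 against empty vector (adjusted p = 0.0399, 0.0457 and 0.0197), PEMT and TRIB3 in V2LHS_62675 (0.0209 and 0.0292), and CHAC1, DDIT4, SLC38A2 and SRR in empty vector against wild type (0.0239, 0.0111, 0.0151 and 0.00529). PEMT passed between constructs too. PEMT and TRIB3 also passed with the 6 arrays as replicates. With weights, 341 of all 11200 features passed in V2LHS_62673 against empty vector, and the counts for the other comparisons are given above. All 9 genes had been named for a small p or a call without clone 8. Their calls with weights are therefore not independent of how they were chosen. In V2LHS_62673, ADSL gave 0.032 with quantile normalization, 0.22 with weights and -0.20 to 0.19, GLUL -0.21 and -0.21 to 0.43, SRR 0.022 and -0.72 to 0.10, and GOT2 -0.39 to 0.11.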
